A study of Homo sapiens with 96 samples.

Results

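In A375 cells, an established human melanoma line driven by a mutated BRAF kinase, mRNA levels were followed after transcription had been stopped with triptolide, with or without a simultaneous block of translation by cycloheximide. The libraries described here are 12 of the 96 in the series. They were chosen by label: all libraries of cells kept in DMSO and harvested 3 or 5 h after triptolide alone (T), or after triptolide with cycloheximide (TCHX), with 3 libraries in each of the 4 groups. All 12 came from cells held for 18 h in DMSO, the solvent of the kinase inhibitors, so that MAPK signalling was not inhibited. Cycloheximide was used at 100 µg/ml and triptolide, which the labels spell tryptolide, at 25 µM, with cycloheximide given 5 min earlier. The same arms at 0 and 1 h, the arms without triptolide (cycloheximide alone, CHX, or vehicle, V) and the arms of cells held for 18 h in vemurafenib and cobimetinib (500 nM each, together MAPKi) served for comparison. Each harvest time was a plate batch of its own, so the arms were compared within a time, and a change in the effect between 3 and 5 h cannot be told apart from the batch.

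Triptolide stops RNA polymerase II, so that an mRNA made before its addition can only decay. Cycloheximide freezes elongating ribosomes on their mRNAs. Much of cytoplasmic decay works on mRNAs that are being translated: nonsense-mediated decay (NMD) is triggered by a terminating ribosome, slow elongation at some codons recruits the CCR4-NOT deadenylase, and the rapid loss of many growth-factor-induced mRNAs with AU-rich elements is known to need translation. An mRNA that is lost under triptolide but kept when cycloheximide is also present is therefore said to undergo translation-dependent decay. The lists used below were written for classes with such links and for classes without.

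RNA was taken from the cytoplasmic fraction and sequenced with QuantSeq, which reads the 3′ end of polyadenylated transcripts, so that each read stands for 1 transcript end. Total counts ran from 3525808 to 11485440 in the 12 libraries and from 2381351 to 12520154 in all 96. Between libraries of a group, Pearson's r of log2 normalized counts was 0.957 to 0.975 over 12 pairs, and none was a copy of another by a chi-square test of the counts. Nothing in the labels says that replicates were separate cultures, so the p-values measure the spread between these libraries, which may be technical. The libraries held the neural crest and melanocyte regulators SOX10, at 51.1 to 269 CPM (read counts scaled to a common library total), and MITF, at 130 to 295 CPM, and the pigment gene DCT, at 34.6 to 56.6 CPM, whereas the pigment genes TYR, TYRP1, MLANA and PMEL reached at most 0.567, 1.48, 1.70 and 2.55 CPM. KRT5, KRT1, CDH5 and CD3E, markers of keratinocytes, endothelium and T cells, were at 0 in all 12.

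To ask which mRNAs lasted longer when translation was also blocked, TCHX was compared with T at 3 and 5 h, averaged over both times. Of 14948 genes tested, 4247 were higher with cycloheximide (28.4%) and 70 were lower (0.468%), by edgeR's quasi-likelihood test at a Benjamini-Hochberg adjusted p under 0.05. At 3 h, 1854 genes were higher (12.4%) and 18 lower (0.12%). At 5 h the counts were 3424 (22.9%) and 54 (0.361%). The 3 TCHX libraries lay above the 3 T libraries at both times for 2258 genes and below them at both times for 14, which is 15.1% and 0.0937% of the genes tested. The quartiles of the log2 change of the genes called higher were 0.41, 0.66 and 1.12. At least a log2 change of 1 was reached by 1267 of them, of 2 by 413, of 3 by 133 and of 4 by 30.

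These counts rest on a scaling to 36 genes whose share of the reads rose at least 1.1 times under triptolide alone at 3 and 5 h, and with it the median log2 change over the whole table was 0.23. No such rise was asked for in TCHX, so the choice of these genes can add to the calls that point up. With TMM scaling, which sets the bulk of genes near 0, 2238 genes were higher (15%) and 1044 lower (6.98%), so that 98.4% of the calls pointed up with the first scaling and 68.2% with the second. At 3 h the TMM counts were 882 higher and 129 lower, and at 5 h 1946 and 496. A change below 0.23 on the log2 scale is therefore less than that of the median gene, and the TMM count is given beside each gene group.

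**Figure D1:**
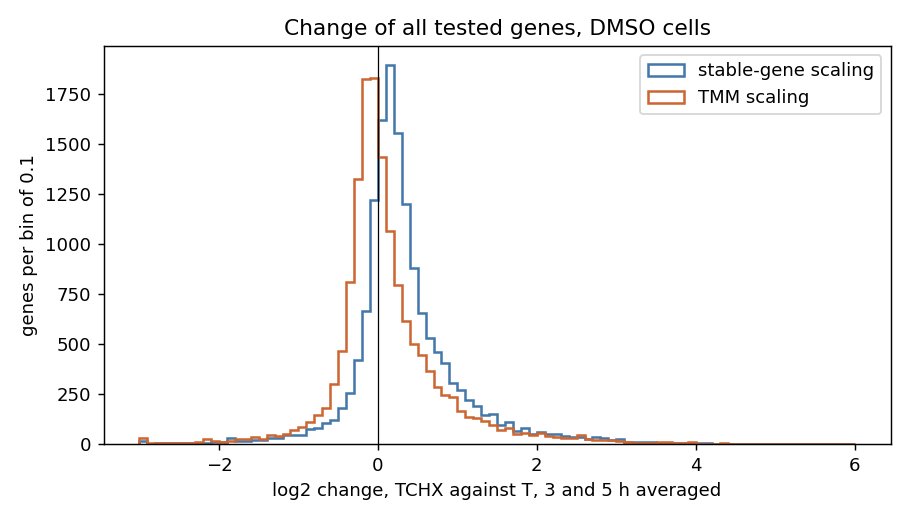
Log2 change of all 14948 genes tested, TCHX against T in DMSO cells with 3 and 5 h averaged, as the number of genes per bin of 0.1 with the stable-gene scaling (blue) and with TMM scaling (orange). Values beyond the axis are drawn in the outermost bins. The median lies at 0.23 with the first and at 0.00 with the second, and the long tail to the right is present with both.

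The level of the median gene was read in each library as a percentage of its mean in vehicle at 0 h, over 14598 genes. With triptolide alone it was 76.5%, 77.3% and 69.7% at 3 h and 66.4%, 66.0% and 60.7% at 5 h. With cycloheximide added it was 87.8%, 85.9% and 82.5% at 3 h and 84.2%, 77.4% and 77.4% at 5 h. The arms did not overlap at either time. The means were 74.5% ± 4.20 (SD, n = 3) and 64.4% ± 3.15 (SD, n = 3) for T and 85.4% ± 2.68 (SD, n = 3) and 79.7% ± 3.92 (SD, n = 3) for TCHX. TCHX was higher by 13.1 percentage points over both times (exact permutation test within times, two-sided p = 0.005, the smallest of 400 arrangements). With TMM scaling this difference was 1.13 points (exact permutation test, p = 0.38), as that scaling removes a shift common to most genes. The 36 scaling genes were chosen for a rise in T and not in TCHX, which can add to the difference. The permutation test takes the scaling as given. With 85 genes stable in both arms, a choice made after seeing the data, it was 4.48 points (exact permutation test, p = 0.1).

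Most of the genes called higher were genes that decayed under triptolide alone. Of the 4247, 3818 were lower in T at 5 h than in T at 0 h, against 6900 of all 14948 genes (46.2%), while 219 of all genes were higher there (1.47%). The T libraries at 5 h enter both comparisons. In the TCHX arm, 1528 of the 4247 were lower at 5 h than at 0 h, 28 were higher and 2691 did not pass the test, against 20% lower and 1.21% higher among all genes. Among the 3572 of them with at least 50 normalized counts at 0 h, the median gene was left with 48.6% of its own 0 h level after 5 h of triptolide and with 78.9% when cycloheximide was present. Normalized counts here are raw counts divided by the library's scaling factor. Fewer mRNA molecules per cell and fewer cells cannot be told apart in such bulk samples.

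The single genes with the largest changes were taken among those that were also called with TMM scaling, had no overlap between the arms at 3 and 5 h and had a mean of at least 50 normalized counts in the higher arm. Among these, the largest rise was that of ADM (chr11:10305073-10307397, GRCh38), which encodes the vasodilator peptide adrenomedullin. At 0 h its normalized counts were 223, 245 and 238 in T and 265, 260.1 and 258 in TCHX. After 3 h they were 12.4, 12.03 and 2.48 in T and 301, 217 and 214 in TCHX, and after 5 h 2.95, 0 and 0.628 against 141, 103 and 137. The mRNA was thus almost gone under triptolide, while each TCHX library still held over 100. The log2 change was 5.64 (SE 0.27, adjusted p = 7.69e-31). Only 5 raw reads of ADM remained in the 3 T libraries at 5 h, so that the size of the change is less certain than its direction.

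DUSP6 (chr12:89347235-89352501), the phosphatase that dephosphorylates ERK and is itself induced by ERK, showed the same pattern at a higher level. It started at 2449.6, 1949 and 2472 normalized counts in T and 2395, 1642 and 2159.9 in TCHX. At 3 h it stood at 61.9, 47.0 and 26.5 in T and 889, 1686 and 1157 in TCHX. At 5 h it stood at 34.7, 15.7 and 8.16 and 589, 509 and 308. Cycloheximide left 22.7% of the starting level where triptolide alone left 0.853%, so that DUSP6 mRNA still fell with both inhibitors, and the log2 change between the arms was 4.71 (SE 0.22, adjusted p = 1.32e-31).

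JUN (chr1:58776845-58784048), the AP-1 subunit encoded by a gene with a single exon, had 169, 159 and 142 normalized counts in T at 0 h. It had 8.56, 9.84 and 2.48 in T at 3 h against 112, 115 and 93.2 in TCHX. At 5 h the values were 5.90, 0.787 and 1.25 against 75.8, 65.7 and 45.1. All TCHX libraries were several times above all T libraries at both times, with a log2 change of 4.19 (SE 0.21, adjusted p = 1.96e-29). GADD45B (chr19:2476122-2478259), a stress-induced regulator of the p38 and JNK pathways, fell in T from 63.0, 61.1 and 69.3 at 0 h to 0.738, 0 and 1.88 at 5 h. With cycloheximide it read 54.4, 37.6 and 93.2 at 0 h and 65.9, 51.9 and 52.1 at 5 h, and its log2 change was 5.38 (SE 0.44, adjusted p = 4.44e-18). The T libraries at 5 h held 4 raw reads of GADD45B in all.

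A further 10 of the genes with the largest rises had log2 changes between 3.47 and 4.19. They included the endosomal and lysosomal phosphoinositide-binding protein PLEKHF1 (4.19), the CDK4-binding transcriptional regulator SERTAD1 (4.07) and the CDC42 effector CDC42EP2 (3.96). A further set were receptors, channels and nuclear factors: KCNK5, a potassium channel (3.63), BAMBI, a decoy receptor of the TGF-β family (3.58), EPHB3, an ephrin receptor (3.53), PPRC1, a coactivator of the PGC-1 family (3.58), and BRF2, an initiation factor of RNA polymerase III (3.47). ZNF48 (3.86) and C15orf39 (3.76) completed the set. PLEKHF1 shows the group's behaviour: it read 1.48, 1.57 and 0.628 in T at 5 h and 59.2, 45.8 and 35.9 in TCHX, from 108, 96.3 and 75.4 in T at 0 h. SERTAD1 was left at 91.7% of its 0 h level by 5 h of both inhibitors and at 1.87% by triptolide alone. Exons of DUSP6, ZNF48, C15orf39 and BRF2 overlap a gene on the opposite strand and those of CDC42EP2 a gene on the same strand, so their counts are uncertain.

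**Figure D2:**
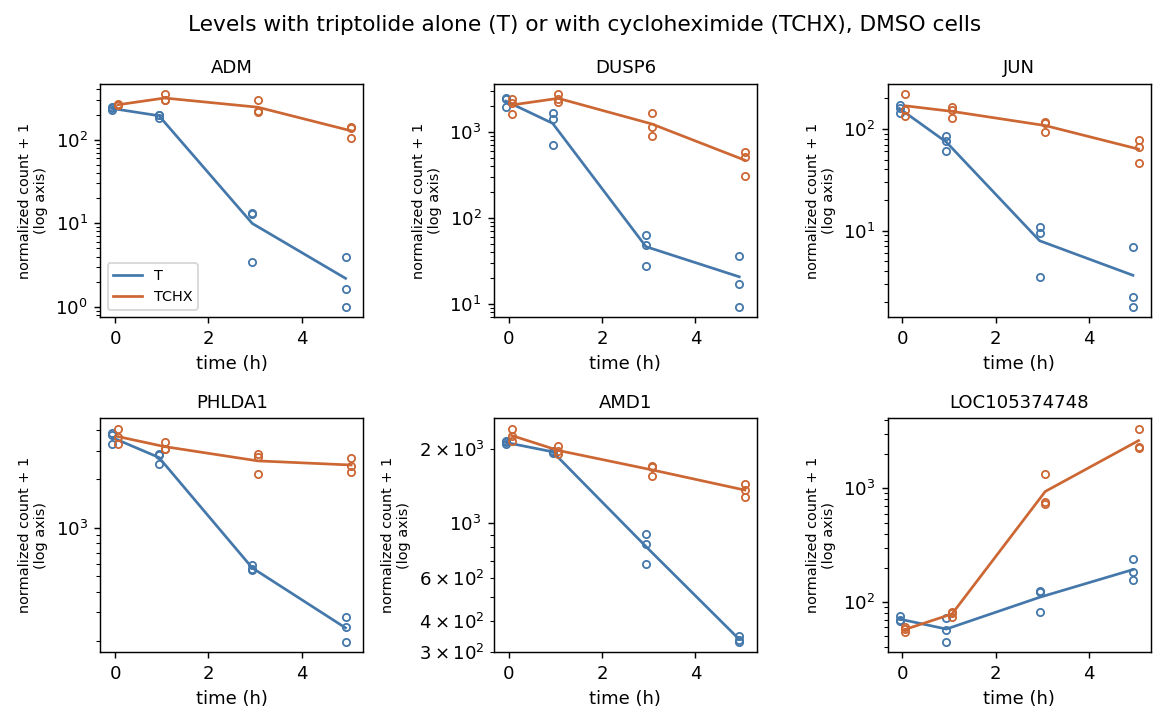
Normalized counts of ADM, DUSP6, JUN, PHLDA1, AMD1 and LOC105374748 at 0, 1, 3 and 5 h with triptolide (T) and with triptolide and cycloheximide (TCHX) in DMSO cells. Points are the 3 libraries of a group, lines join their means, and the vertical axis is a log axis of the count plus 1. The arms start together and part by 3 h for all 6 genes, and at 5 h the TCHX libraries lie above all TCHX libraries of 0 h for LOC105374748 and below all of them for the other 5 genes.

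Immediate-early and labile regulators, the transcription factors and feedback proteins switched on by growth factors, were the list with the largest share of calls. Of 48 members, 45 were tested, 37 rose and none fell, a share of 82.2% beside 28.4% of all genes, and 35 rose with TMM scaling. The median log2 change was 1.97, beside 0.23 for all genes. Of the 8667 coding genes with at least 50 normalized counts at 0 h, 39.4% rose, with a median of 0.21. That share is the nearer background for lists whose members mostly reach this minimum. For the 29 members with at least 50 normalized counts at 0 h, the median left after 5 h was 7.76% with T and 43.5% with TCHX. HES1, a transcriptional repressor of the Notch pathway, rose by 3.10 on the log2 scale, IER2 by 3.04, and PLK2, a polo-like kinase, by 2.86. IER2 read 67.6, 43.2 and 22.3 normalized counts in T at 3 h and 575, 443 and 430.3 in TCHX. It read 31.0, 35.4 and 26.4 and 199, 175 and 200.2 at 5 h, so that the arms were well apart at both times. EGR1, a zinc finger factor that ERK induces, rose less, by 1.58, and kept 21.9% of its level with cycloheximide against 7.76% without.

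AU-rich elements were looked for in the 3′ untranslated regions of these genes as the 9-base core TTATTTATT on the mRNA strand, with overlapping copies counted separately. It was present in 10.2% of the 8667 coding genes with at least 50 normalized counts at 0 h. Of the 29 such immediate-early members, 8 held it and all 8 rose, with a median log2 change of 2.02. The other 21 also all rose, with a median of 2.01. The sites are shown because they are the textbook decay element of this class. Members with and without this core had nearly the same median here. Only the exact core was searched, so members without it may hold other forms of AU-rich element. These medians therefore do not compare genes with and without AU-rich elements. A site is given for each of the 8 genes, with 9 bases on either side in GRCh38 and the core in capitals, and where a gene has several it is the first after the stop codon.
PLK2: ataaactttTTATTTATTacagcccaa
PLK3: ggaccacttTTATTTATTgtcagacac
IER5: tgtcttcctTTATTTATTtatttattt
FOSL2: tttattttaTTATTTATTttaaatgtt
ZFP36L1: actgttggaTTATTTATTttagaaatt
MAFF: ccccactgtTTATTTATTgcacggatc
ZFP36L2: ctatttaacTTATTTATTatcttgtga
TNFAIP3: taattcactTTATTTATTttattacaa
The PLK2 site was at chr5:58454067-58454093 on the minus strand, with the core starting at base 499 after the stop codon. The PLK3 site was at chr1:44805901-44805927 on the plus strand, with the core starting at base 232 after the stop codon. The IER5 site was at chr1:181092444-181092470 on the plus strand, with the core starting at base 2567 after the stop codon. The FOSL2 site was at chr2:28416356-28416382 on the plus strand, with the core starting at base 3917 after the stop codon. The ZFP36L1 site was at chr14:68788078-68788104 on the minus strand, with the core starting at base 1438 after the stop codon. The MAFF site was at chr22:38215915-38215941 on the plus strand, with the core starting at base 1046 after the stop codon. The ZFP36L2 site was at chr2:43223449-43223475 on the minus strand, with the core starting at base 853 after the stop codon. The TNFAIP3 site was at chr6:137882299-137882325 on the plus strand, with the core starting at base 989 after the stop codon. Of these 8 genes, PLK2, PLK3, IER5 and FOSL2 had log2 changes of 2.25 to 2.86, while MAFF, ZFP36L2 and TNFAIP3 were between 1.19 and 1.32. IER5 holds overlapping copies in the stretch shown. A match is a description of the letters and not evidence that a protein binds there.

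Genes driven by ERK output formed a mixed list. Of 20 tested members, 12 rose (60%, beside 28.4% of all genes) and none fell, with a median log2 change of 1.42. With TMM scaling 11 rose and 1 fell. The 12 were led by DUSP6 and by SPRY2 (3.07), a feedback inhibitor of receptor tyrosine kinase signalling, PHLDA1 (2.78) and DUSP5 (2.51), a nuclear ERK phosphatase. PHLDA1 was abundant, with 3717, 3269.5 and 3824 normalized counts in T at 0 h. It fell to 243, 279 and 197 in T at 5 h, against 2685, 2417 and 2218 in TCHX. The 3 TCHX libraries kept most of the starting level while the T libraries lost nearly all of it. Not all ERK targets behaved so: the log2 change was 0.17 for CCND1, 0.09 for ETV4 and 0.06 for ETV5, none past the test, and -0.06, -0.15 and -0.18 with TMM scaling. These 3 were picked out after their values had been seen. They kept 78.2%, 91.9% and 89.4% of their 0 h level after 5 h of triptolide alone.

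Known substrates of NMD were tested as stress-response mRNAs whose short upstream reading frames or other features make them NMD-sensitive. Of 22 tested, 16 rose (72.7%, beside 28.4% of all genes) and none fell, with a median log2 change of 0.85. With TMM scaling 15 rose and 1 fell. DDIT3, the stress-induced factor CHOP, rose by 3.06 (SE 0.16), IFRD1 by 2.87 (SE 0.19) and GADD45A by 2.25 (SE 0.12). GADD45A had 58.3, 58.2 and 21.96 normalized counts in T at 5 h and 286, 277 and 251 in TCHX, where it started from 225, 252 and 288. The TCHX libraries at 5 h thus stood at the level of those at 0 h. The median of the list went from 40.1% left with T to 90.9% with TCHX. Exons of DDIT3 and IFRD1 overlap those of other genes, which makes their counts uncertain.

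NMD factors have mRNAs that are themselves NMD substrates in a known feedback loop. Of 18 tested, 13 rose (72.2%) and none fell, but by less, with a median of 0.36. Of coding genes with at least 50 normalized counts at 0 h, which all 18 had, 39.4% rose. With TMM scaling 8 of the 18 rose and 1 fell. The largest were SMG9 (1.91) and SMG8 (1.23), which control the kinase of the pathway, PNRC2 (1.102) and UPF2 (0.82). SMG9 read 39.1, 39.3 and 26.4 in T at 5 h and 179.6, 175 and 228 in TCHX, with no overlap. Hosts of small nucleolar RNAs, noncoding transcripts whose short reading frames are translated, rose in 11 of 25 cases (44%, beside 28.4% of all genes). Their median was 0.24, beside 0.23 for all genes. With TMM scaling 8 rose and 2 fell. SNHG7 (2.13) stood apart from SNHG1 (0.84), EPB41L4A-AS1 (0.77) and SNHG11 (0.65), and it kept 96.1% of its level with cycloheximide against 13.2% without. SR splicing factors and their kinases, many of which make poison-exon transcripts, rose in 22 of 32 cases (68.8%) with a median of 0.30. With TMM 12 rose and 1 fell. All 32 reached the same count minimum. CLK1 (2.47), RBM5 (1.49), CLK4 (1.22) and CLK3 (0.78) led the list, so that kinases of the CLK family had 3 of its 4 largest changes. A 3′-end assay does not separate a poison-exon isoform from the coding one.

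**Figure D3:**
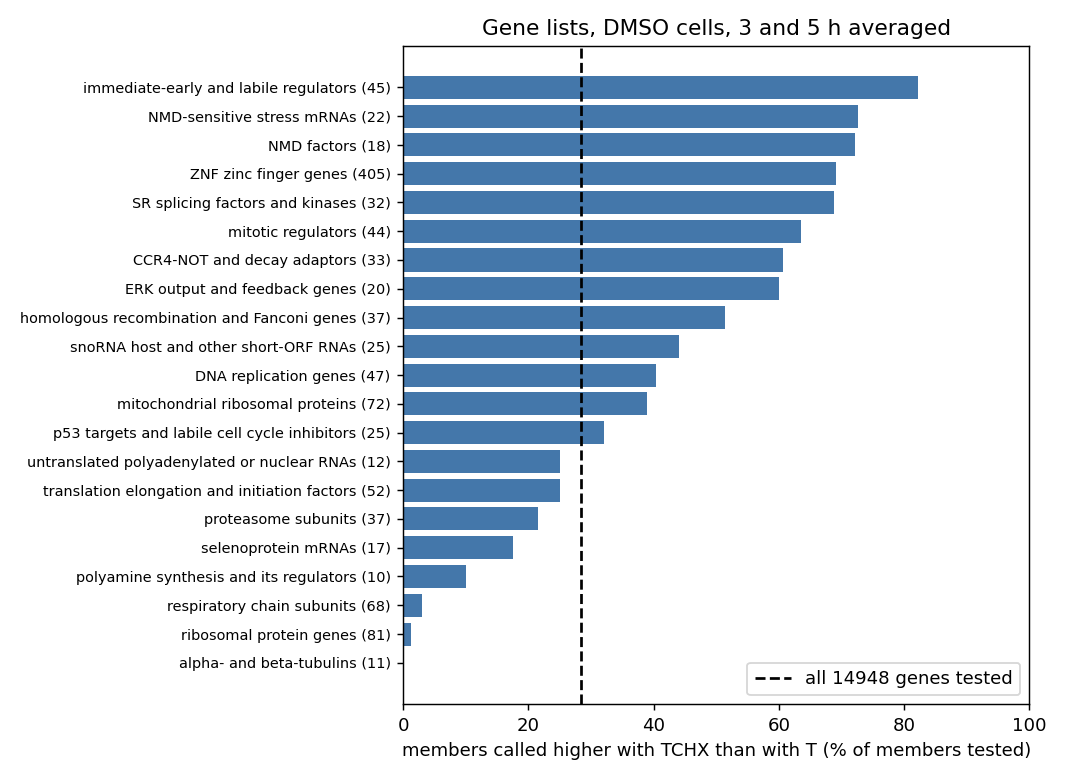
Share of the tested members of each gene list that were higher with TCHX than with T in DMSO cells, 3 and 5 h averaged, with the number tested in brackets. Bars start at 0, and the dashed line is the 28.4% of all 14948 genes. Immediate-early genes reach 82.2%, whereas ribosomal protein genes, respiratory chain subunits and alpha- and beta-tubulins are at 1.23%, 2.94% and 0.

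Zinc finger genes named ZNF, mostly sequence-specific repressors, were the largest list. Of 405 tested, 280 rose (69.1%, beside 28.4% of all genes) and none fell, with a median log2 change of 1.03. With TMM scaling 226 rose and 3 fell. The median of the 226 members with at least 50 normalized counts at 0 h was 26.7% left after 5 h of T and 61.5% after TCHX. ZNF48, ZNF217 (3.28), ZNF296 (3.17) and ZNF408 (3.07) led. ZNF217 fell in T from 157, 145 and 163 to 1.48, 2.36 and 0 at 5 h and read 29.9, 36.3 and 42.8 in TCHX at that time. Members of this family share sequence, and reads that map to several of them could be split or lost in counting.

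CCR4-NOT subunits and decay adaptors, the deadenylation machinery and its regulators, formed a further list. Of 33 tested, 20 rose (60.6%, beside 28.4% of all genes) and none fell, with a median of 0.31. With TMM 10 rose and 2 fell, with a median of 0.08. The adaptors were ahead: ZFP36L1 (1.78) and ZFP36L2 (1.26), which bind AU-rich elements, and the antiproliferative proteins BTG1 (1.61) and TOB2 (1.42), which bind the deadenylase. ZFP36L1, ZFP36L2 and BTG1 are also members of the immediate-early list, so their calls count in both lists. BTG1 read 347, 252 and 215 normalized counts in T at 5 h against 1315, 1194 and 1229 in TCHX. Its arms did not overlap at that time.

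Cell cycle and DNA repair genes differed by list. All 44 mitotic regulators tested and 36 of the 37 homologous recombination and Fanconi genes had at least 50 normalized counts at 0 h. Of coding genes with that minimum, 39.4% rose, with a median of 0.21. Of the mitotic regulators, 28 of 44 rose (63.6%), with a median of 0.33, led by FAM83D (1.55), the inhibitory CDK1 kinase WEE1 (1.42), KIF18A (1.23) and CDC25A (0.91). With TMM 17 rose and 2 fell. Of the homologous recombination and Fanconi genes, 19 of 37 rose (51.4%), with a median of 0.40. With TMM 10 rose and none fell. BARD1 (1.70), the partner of BRCA1, had 64.9, 85.0 and 77.2 normalized counts in T at 5 h and 299, 269.7 and 285 in TCHX. FANCF (1.30), BLM (1.01) and EME1 (0.99) followed. Replication genes rose in 19 of 47 cases (40.4%), with a median of 0.21 that is below that of all genes, and with TMM 7 rose and 8 fell. All 47 had at least 50 normalized counts at 0 h, and 39.4% of coding genes with that minimum rose, a similar share. Their largest changes were those of GINS3 (1.096), POLD3 (0.90), the licensing factor CDT1 (0.84) and its inhibitor GMNN (0.67). Of the p53 targets and labile cell cycle inhibitors, 8 of 25 rose (32%), near the 28.4% of all genes, with a median of 0.28 beside 0.23, and with TMM 7 rose and 1 fell. The 8 included the proapoptotic BBC3 (2.76), the exonuclease AEN (2.25) and the CDK inhibitor CDKN1B (2.15).

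The mRNAs of the basal machinery gave few calls. Of 81 ribosomal protein genes, 1 rose (1.23%) and 1 fell, with a median of 0.03. These were 2 paralogs, RPL7L1 (0.30) and RPL22L1 (-0.38). With TMM scaling none rose and 46 fell, since their change is below that of the median gene. The scaling genes include 6 ribosomal protein genes, so the level of this list near 0 is partly set by the scaling. Of 68 respiratory chain subunits, 2 rose, NDUFV3 (0.47) and UQCR11 (0.15), and with TMM 1 rose and 31 fell, with UQCR11 at -0.08. Both lists barely decayed: with triptolide alone the median member kept 95.1% and 95.5% of its 0 h level after 5 h.

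Of the mitochondrial ribosomal proteins, 28 of 72 were higher (38.9%) and 1 lower, with a median of 0.17, and with TMM 5 rose and 7 fell. At least 50 normalized counts at 0 h were reached by 71 of them. Among coding genes with that minimum 39.4% were higher, with a median of 0.21, so this list was near that share. MRPS30 (0.86), MRPS31 (0.81), MRPL46 (0.81) and MRPL44 (0.62) rose most and MRPS18C fell (-0.22). Translation factors rose in 13 of 52 cases (25%, beside 28.4% of all genes) and fell in 2, with a median of 0.14. With TMM 2 rose and 14 fell. EIF5 (1.05), the GTPase activator of start-codon recognition, was ahead of EIF4A2 (0.58), EIF4ENIF1 (0.52) and EIF1B (0.48), while the cap-binding repressor EIF4EBP2 was lower (-0.26). EIF5 shares exon sequence with another gene on its strand, which makes its count uncertain. Of the proteasome subunits, 8 of 37 rose (21.6%, beside 28.4% of all genes), with a median of 0.12. With TMM 1 rose and 5 fell. Their largest changes were PSMD5 (0.35), PSMC6 (0.35), PSMD12 (0.30) and PSME4 (0.29).

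Tubulin mRNAs are degraded on ribosomes when the nascent tubulin chain is recognised, a known case of decay that needs translation. None of the 11 tested alpha- and beta-tubulins rose or fell, the median log2 change was 0.08, and with TMM scaling none rose and 3 fell. TUBA1B, the most abundant, read 38030.0, 34236 and 33082 in T at 5 h and 29409, 30548 and 35988 in TCHX, with overlapping arms, and its log2 change was -0.03 (SE 0.09, adjusted p = 0.833). Over the 7 members with at least 50 normalized counts at 0 h, the median kept was 89.9% after 5 h of T and 71.5% after TCHX. These percentages divide each arm by its own 0 h mean. Compared directly, TCHX against T at 5 h, the median log2 change of the 11 tested was -0.01. Of the 4 other tubulins, TUBD1 (0.83) and TUBG2 (0.53) rose, and with TMM 1 rose and none fell, with TUBG2 at 0.29 (adjusted p = 0.132 by edgeR).

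Selenoprotein mRNAs carry a UGA codon read as selenocysteine and can be NMD targets. They rose in 3 of 17 cases (17.6%, beside 28.4% of all genes), with a median of 0.07. With TMM 1 rose and 4 fell. The 3 were SELENOO (0.73), SEPHS2 (0.52) and SELENOW (0.31). Among 10 genes of polyamine synthesis, 1 rose (10%) and none fell, with a median of 0.07, and with TMM 1 rose and 3 fell (OAZ1, SMS and ODC1). The gene that rose, with both scalings, was AMD1, which encodes S-adenosylmethionine decarboxylase and is controlled by a short upstream reading frame. AMD1 read 2156, 2094 and 2140.0 normalized counts in T at 0 h. It read 823, 906 and 683 in T and 1686, 1706 and 1558 in TCHX at 3 h. It read 347, 329.7 and 333 and 1449, 1274 and 1370.4 at 5 h, and the arms did not overlap at either time. Its log2 change was 1.53 (SE 0.07, adjusted p = 1.63e-30).

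RNAs that are not translated were read as well, but they are not a clean reference for decay without translation. Some are nuclear, whereas the RNA here came from the cytoplasmic fraction. Triptolide stops RNA polymerase II, so RNAs made by another polymerase can still be made under it. The polymerase III transcript RN7SK, for one, was higher in every T library at 5 h than in any T library at 0 h. Of 12 tested untranslated polyadenylated or nuclear RNAs, 3 rose (25%), near the 28.4% of all genes, with a median of 0.20 beside 0.23. The median left after 5 h was 66.2% in both arms. With TMM 1 rose and 1 fell. The 3 were KCNQ1OT1 (0.56), TUG1 (0.27) and MALAT1 (0.15), and the last is at -0.08 with TMM scaling. The antisense transcript KCNQ1OT1 was lost in both arms, to 6.95% with T and 11.6% with TCHX. Of the mitochondrial rRNAs, neither passed the test, and RNR2 was at -0.04. With TMM none rose and 1 fell, RNR2 at -0.27.

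**Figure D4:**
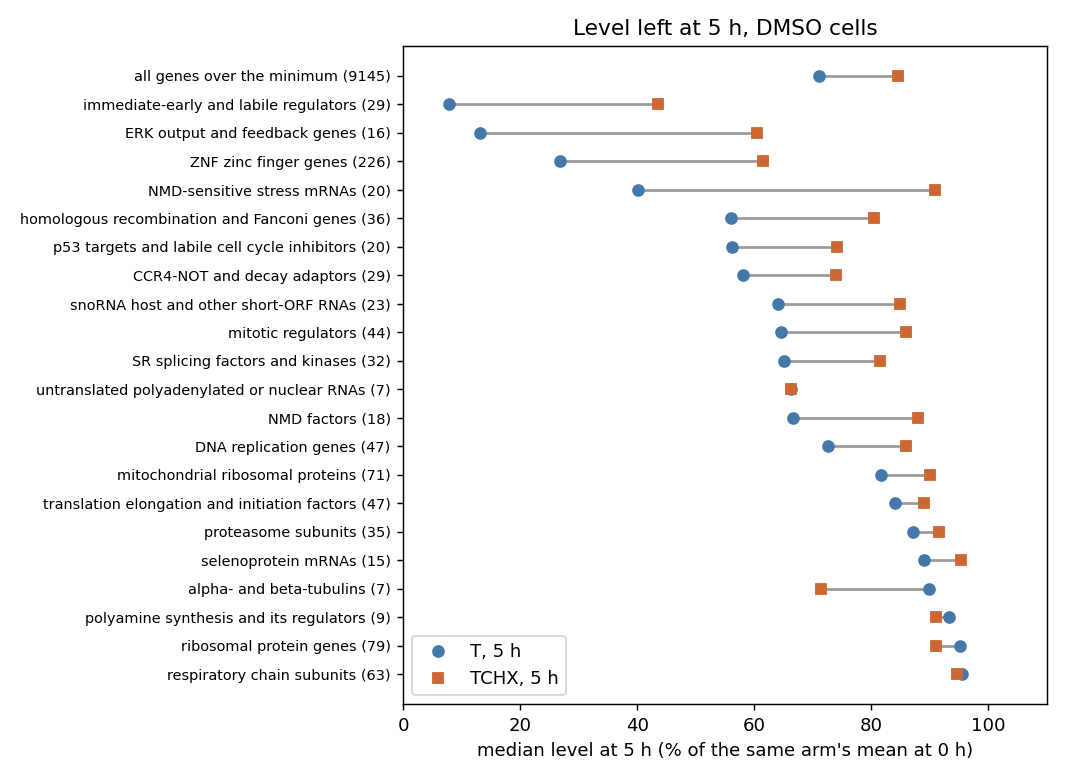
Median percentage of the own 0 h level left at 5 h in DMSO cells, for each gene list, with triptolide alone (T) and with triptolide and cycloheximide (TCHX), over members with at least 50 normalized counts in T at 0 h, whose number is given in brackets. Over all 9145 such genes the medians are 71.1% and 84.5%. The widest gaps are those of the NMD-sensitive stress mRNAs, from 40.1% to 90.9%, and the ERK output genes, from 13.04% to 60.5%. For 7 alpha- and beta-tubulins the percentage of the own 0 h level is 71.5% with TCHX against 89.9% with T. Compared directly, TCHX against T at 5 h, the median log2 change of the 11 tested was -0.01.

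Of the falls, 6 genes met the same rule as the rises above, and all were small. TRNK (-0.65), TRNR (-0.63) and TRNW (-0.48) are entries of mitochondrial tRNAs, which the mitochondrial RNA polymerase makes. TRNW read 1788, 1542 and 1889.5 normalized counts in T at 0 h. It read 2435, 2366 and 2159 in T and 1674, 1437 and 1223 in TCHX at 5 h, with no overlap. TRNW is 1 of the 36 scaling genes, which were chosen for a rise in T at 3 and 5 h, so that choice partly sets its direction. The other falls were MAST2 (-0.62), a microtubule-associated kinase, NCEH1 (-0.33), a cholesteryl ester hydrolase, and CCNI (-0.21), cyclin I. MAST2 read 177, 208 and 172 in T at 5 h and 111, 95.9 and 125 in TCHX. NCEH1 and CCNI overlap genes on the opposite strand, and the adjusted p of NCEH1 was 0.0441.

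Of the 4247 genes, 28 stood above their own 0 h level after 5 h with both inhibitors, and 3 of them were picked out after their values had been seen. LOC105374748, a noncoding RNA gene on chromosome 5 next to ANXA2R, read 53.4, 57.3 and 59.4 normalized counts in TCHX at 0 h. It read 1323, 757 and 731 in TCHX at 3 h and 2303, 2246 and 3314 at 5 h. In T it read 238, 183 and 156 at 5 h, and with cycloheximide alone 401, 336 and 363. It thus climbed most with both inhibitors together, and in T alone as well. CYB5D2, a heme-binding protein, went from 168, 149 and 138 to 603, 574 and 803 in TCHX and read 170.4, 199 and 162 in T at 5 h. RN7SL832P, a pseudogene of the signal recognition particle RNA, went from 51.4, 72.0 and 68.7 to 363, 368 and 449. The counts of CYB5D2, which overlaps ANKFY1 on the opposite strand, and of RN7SL832P, a copy of a repeated RNA, are uncertain.

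To see how the effect developed, the same contrast was read at the earlier harvests. At 0 h, 1 gene was higher (0.00669%) and none lower by edgeR, with 235 higher and 171 lower at an unadjusted p under 0.05, and the 1 was a repeat entry, DNAJC8_1. At 1 h, 6 genes were higher (0.0401%) and none lower by edgeR, with 399 and 217 at an unadjusted p under 0.05. The 6 were CCNL1 (0.79), JUN (1.00), KLF6 (0.68), NFKBIA (0.93), SNHG12 (0.95) and TRA2B (0.67), of which JUN, KLF6 and NFKBIA are immediate-early genes. JUN read 84.5, 75.6 and 59.3 normalized counts in T at 1 h and 152, 164 and 126 in TCHX. The effect at 3 and 5 h exceeded that at 1 h for 1770 genes (11.8%) and was below it for 27 (0.181%), by the test of the difference, with ADM (4.94) and GADD45B (4.47) among the largest on the log2 scale.

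Between 3 and 5 h the effect grew for 238 genes (1.59%) and shrank for 10 (0.0669%). Among genes also called with TMM scaling and with a mean of at least 50 normalized counts in the higher arm, growth was largest for KLHL26, an adaptor of ubiquitin ligases, by 3.47 on the log2 scale. It read 11.4, 19.1 and 25.6 in T and 60.2, 63.9 and 59.0 in TCHX at 3 h, and 0, 3.94 and 0 and 37.9, 53.6 and 49.8 at 5 h. All TCHX libraries were lower at 5 h than at 3 h, and the T libraries fell further. In T at 5 h there were only 0, 5 and 0 raw reads of KLHL26, so the size of this growth is uncertain. PPRC1 (2.89) and BLOC1S3 (2.80), a subunit of the complex that forms lysosome-related organelles, came next, while ZNF217, under that count minimum, had 3.00. RPL22L1 went the other way: TCHX minus T was -0.03 at 3 h and -0.73 at 5 h, a difference of -0.70 (adjusted p = 0.0138 by edgeR). That call was lost with mitochondrial rRNA scaling (-0.51), without replicate 2 (-0.65) or 3 (-0.61) and without 4 single libraries.

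Cycloheximide given without triptolide also raised genes, 3721 of 14948 (24.9%) against 861 lower (5.76%). Its effect was larger with triptolide than without for 1731 genes (11.6%) and smaller for 629 (4.21%), with a test of the difference between the contrasts. With TMM scaling these were 1354 and 1029. For PLEKHF1 the difference was 4.03 on the log2 scale and for C15orf39 3.82. Without triptolide, PLEKHF1 read 90.7, 97.9 and 78.4 in vehicle and 119, 144 and 106 with cycloheximide at 3 h, with no overlap. At 5 h it read 141, 116 and 90.1 and 127, 82.1 and 102, with overlap, and the change over both times was 0.16 (adjusted p = 0.515 by edgeR). EGR1 was the opposite case, with a difference of -4.38. It read 543, 475 and 484 in vehicle and 46666, 46167 and 45974 with cycloheximide, while in TCHX it read 74.5, 99.4 and 90.3. The high EGR1 level with cycloheximide was thus seen only in the arm without triptolide. ZFAS1, a snoRNA host, had a difference of -2.49 and INHBA, a subunit of activin, one of -2.23. JUN rose in both settings, by 4.19 with triptolide and 4.86 without, and the difference of -0.67 did not pass the test (adjusted p = 0.188 by edgeR).

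The same contrast in MAPKi cells called 6194 genes higher (41.4%) and 80 lower, with a median log2 change of 0.34. The effect was larger in DMSO cells than in MAPKi cells for 44 genes (0.294%) and smaller for 1019 (6.82%). With TMM scaling these were 132 and 421. Under the same count minimum, genes with a larger effect in DMSO cells were led by PDE4B, a cAMP phosphodiesterase, with 2.94 in DMSO and 0.69 in MAPKi cells, a difference of 2.25 (SE 0.32, adjusted p = 3.12e-07). SPRY1, a feedback inhibitor of ERK signalling, had 1.84 and -0.07, a difference of 1.91 (SE 0.56, adjusted p = 0.0197). Its call was lost with mitochondrial rRNA scaling (1.85), without replicate 1 (1.94) and without replicate 3 (1.52, adjusted p = 0.241 by edgeR). SPRY1 read 5.90, 11.8 and 15.1 in T at 5 h and 39.3, 53.6 and 25.5 in TCHX in DMSO cells. RN7SL832P had a difference of 1.403. Of the 20 ERK output genes, 2 had a larger and 3 a smaller effect in DMSO cells, and the median was 1.42 in DMSO and 0.51 in MAPKi cells. DUSP6 had 4.71 and 2.94, and its difference of 1.77 did not pass the test (SE 1.51, adjusted p = 0.602). The SE of its DMSO contrast alone was 0.22. SPRY2 had a difference of 2.68, which did not pass the test either. How many reads the ERK output genes had in MAPKi cells was not examined. The lower median there is therefore not a measure of weaker decay.

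Genes with a smaller effect in DMSO cells included PROSER2 (0.81 in DMSO, 3.01 in MAPKi cells), RPP38, a subunit of RNase P (3.02 and 5.17), and RP9 (1.08 and 2.97). DUSP5, of the ERK output list and under the count minimum, had a difference of -3.65 (SE 1.07, adjusted p = 0.0214). PROSER2 and RPP38 overlap genes on the opposite strand. Among the immediate-early genes, the effect was smaller in DMSO cells for 11 of 45 and larger for 2. JUN was one of the 11, with 4.19 in DMSO and 5.73 in MAPKi cells, a difference of -1.54 (SE 0.37, adjusted p = 0.00368).

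Gene structure was related to the effect in the 8667 coding genes with a complete reading frame and at least 50 normalized counts at 0 h, as a description over genes that share the same libraries. Of these, 39.4% were called higher and the median log2 change was 0.21. The 362 genes with a single coding exon had a median of 0.71 and 70.2% were higher. Genes with 2 coding exons had 0.42 and 55.2%, and those with 3 to 4 had 0.21 and 41.3%. From 5 exons on the median stayed between 0.17 and 0.23. With TMM scaling single-coding-exon genes were at 0.48 and those with 5 to 8 exons at -0.07. Without the ZNF genes the 344 single-coding-exon genes had a median of 0.69. Exons that hold only untranslated sequence were not counted. JUN, PLEKHF1, SERTAD1 and CDC42EP2, among the largest rises above, have a single coding exon.

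The gap was present at all levels of expression. With the genes cut into 3 equal classes by their 0 h level, from low to high, single-coding-exon genes had medians of 0.88, 0.70 and 0.42, against 0.25, 0.21 and 0.16 for genes with 5 or more coding exons. Single-coding-exon genes also decayed faster with triptolide alone, with a median of 33.9% left at 5 h, against 71.7% over all 8667. The number of coding exons per kb of coding sequence had a Spearman's rho of -0.40 with the log2 change across these genes, and when the genes were ranked by it and cut into 5 equal classes, the medians went from 0.57 in the lowest class to 0.11 in the highest. In MAPKi cells the rho was -0.39 and single-coding-exon genes had a median of 1.04. Coding length had a rho of 0.18. The share of codons that end in G or C had 0.07, the length of the 3′ untranslated region 0.04, the number of AU-rich cores 0.04 and the number of upstream AUG codons 0.05, all of them weak. For the codon share the rho was -0.06 in MAPKi cells. In 5 equal classes of that share, from low to high, the medians in DMSO cells were 0.23, 0.16, 0.18, 0.23 and 0.25. They thus did not move in a single direction.

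**Figure D5:**
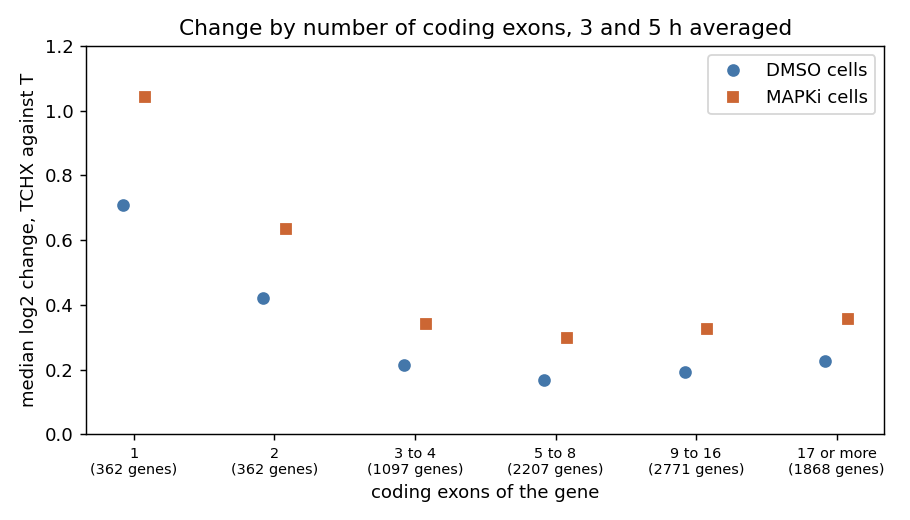
Median log2 change, TCHX against T with 3 and 5 h averaged, of genes grouped by their number of coding exons, in DMSO cells (circles) and MAPKi cells (squares), with the number of genes under each class. Genes with 1 coding exon stand at 0.71 in DMSO and 1.04 in MAPKi cells, and from 3 exons on the medians stay under 0.40 in both.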

How the data were processed

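Cytoplasmic RNA of A375 cells (500 ng per library) was made into 96 QuantSeq libraries, in 32 groups of 3. The authors deposited a table of raw read counts per gene with 44659 entries, of which 29375 have a count. Per the labels' processing notes it was made with fastp 0.20.1, HISAT2 2.2.1, HTSeq 0.13.5 and GRCh38.p13. Whether strand was used in counting is not given in the sources used here. No collapsing of repeated reads is described, so a count covers reads and not molecules.

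Counts were fitted with edgeR 4.0.16 in R 4.3.3 (quasi-likelihood, filterByExpr, 14948 genes kept, 1 mean per group over 96 libraries). Contrasts were tested two-sided with Benjamini-Hochberg adjustment over all genes. Size factors came from stable genes, by a stricter form of the study's rule (CPM over 0.2 and at least 1.1 times the initial CPM at 3 and 5 h of triptolide in every replicate, which left 36) with DESeq2 1.42.0 medians of ratios. The study's rule asks for the rise at 3 or 5 h, and that reading (526 genes) was an alternative. TMM, total-count, mitochondrial rRNA and DESeq2 all-gene scaling, the DESeq2 test, filters, a replicate block, the 12 libraries alone and leaving out libraries were alternatives. The code was tested on simulated data.

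The comparisons, members and gene lists were chosen with earlier results of these data known. Named genes were those called also with TMM, without overlap at 3 and 5 h, and with a mean of at least 50 normalized counts in the higher arm (the 15 largest rises and up to 8 falls), the 3 largest in each direction of each difference between contrasts (also called with TMM, same count minimum), and the top members of each list. A gene that met these rules is not reported here. Exons, coding sequences and untranslated regions came from GENCODE annotation of GRCh38, matched by symbol for 27034 entries. The replicate numbers were not used as pairs: over 18 pairs of same-numbered libraries from different groups, the correlation of deviations was -0.112 to 0.171 and 2 were over 0.1. Low correlations cannot show that the libraries are unpaired. A prefix in the column headers goes with the replicate number, and what it stands for is not given.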

Additional observations from a re-analysis of the deposited data

Results flagged for a closer look

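In each case below, the effect of cycloheximide differed between settings by edgeR's test of the difference itself (adjusted p under 0.05), and values are log2 differences. No cause was tested.

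Between 3 and 5 h the effect of cycloheximide under triptolide grew by 3.47 for KLHL26, 2.89 for PPRC1 and 2.80 for BLOC1S3. It changed by -0.70 for RPL22L1, -2.34 for RN7SK and -9.41 for XAGE1A. RN7SK, the noncoding 7SK RNA, was at 1.46 at 3 h and -0.88 at 5 h. XAGE1A, a cancer-testis antigen of a multicopy family, rests on single libraries: it read 10.4, 1888 and 9.38 normalized counts in TCHX at 3 h and 16.2, 15.7 and 585 in T at 5 h. Without TCHX 3 h replicate 2 its difference was -3.37 (adjusted p = 0.575 by edgeR), and without T 5 h replicate 3 it was -5.71 (adjusted p = 0.104 by edgeR).

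From 1 h to 3 and 5 h the effect differed by 4.94 for ADM and 4.47 for GADD45B. It differed by -0.70 for TRNR, -0.88 for GALNT18, a glycosyltransferase, and -7.66 for FRG1. FRG1, which has many near-identical copies, read 419.8, 0.787 and 1.25 in T at 5 h and 3.80, 454 and 1.24 in TCHX at 1 h. Without replicate 1 its difference was -4.45 (adjusted p = 0.383 by edgeR) and without replicate 2 it was -2.50 (adjusted p = 0.554 by edgeR).

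With triptolide minus without, the effect of cycloheximide differed by 4.03 for PLEKHF1 and 3.82 for C15orf39. It differed by -2.23 for INHBA, -2.49 for ZFAS1 and -4.38 for EGR1.

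In DMSO minus MAPKi cells the effect differed by 2.25 for PDE4B, 1.91 for SPRY1 and 1.403 for RN7SL832P. It differed by -1.88 for RP9, -2.15 for RPP38 and -2.20 for PROSER2.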

How the results depend on the processing

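The scaling decided how many genes passed and in which direction, since no spike-in count was used. Genes called in the average of 3 and 5 h numbered 4317 in all, 3446 with DESeq2 size factors over all genes (2182 higher, 1264 lower) and 2843 when the 85 genes stable in both arms set the scale, a choice made after seeing the data. At 3 h, 1872 genes were called, 1011 with TMM, 1153 with total counts, 1040 with mitochondrial rRNA, 1060 with the stable genes of both arms, 1016 with DESeq2 size factors (867 higher, 149 lower) and 993 with only the 12 libraries fitted. At 5 h DESeq2 size factors gave 1854 higher and 710 lower. The 5 h minus 3 h difference was called for 248 genes, 431 with mitochondrial rRNA and 66 with only the 12 libraries. The difference from 1 h was called for 1797 genes, 1068 with TMM, 1039 with the stable genes of both arms and 1067 with DESeq2 size factors. For triptolide present minus absent, mitochondrial rRNA gave 702 higher and 902 lower, and DESeq2 size factors 1382 and 995. DMSO minus MAPKi was called for 1063 genes, 553 with TMM, 590 with the stable genes of both arms and 603 with DESeq2 size factors (105 higher, 498 lower). At 0 h, 5 genes passed without a filter on low counts. The median level differed by 13.1 percentage points, but by 1.13 with TMM, 4.48 with the stable genes of both arms and 0.301 with DESeq2 size factors. Taking the rise at 3 or 5 h, the study's wording, gave 526 scaling genes and 4235 calls for the average (4159 higher, 76 lower). The DESeq2 test called 4448. The cause of these shifts other than the scaling itself was not tested.

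With a replicate block the average gave 4497 calls (4424 higher, 73 lower), 3 h 2016, 5 h 3637 and 0 h none. The block moved no other count of calls by over 1.5 times. Whether the replicate numbers pair the libraries is not known.

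Leaving out 1 library or 1 replicate number gave 2831 to 4432 calls for the average, 1134 to 1884 at 3 h, 2119 to 3513 at 5 h, 81 to 307 for 5 h minus 3 h, 0 to 1 at 0 h, 987 to 1270 for the difference from 1 h, 1239 to 1603 for triptolide present minus absent, 400 to 674 for DMSO minus MAPKi and 11.7 to 14.0 points for the median level (exact permutation test, p = 0.0556 each). With 1 replicate number left out, 0.0556 is the smallest p that this permutation test can give. Single libraries moved 3 h to 1200 (without T 3 h replicate 3) and 1193 (without TCHX 3 h replicate 1). They moved 5 h minus 3 h to 156 (without T 3 h replicate 1), 148 (without T 5 h replicate 3) and 155 (without TCHX 3 h replicate 3).

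The 21 genes taken by the rule on size, overlap and TMM, 15 rises and 6 falls, kept their direction in all 525 combinations of gene and alternative and lost the call in 19. Calls near the threshold, such as those of NCEH1, RPL7L1, UQCR11, MALAT1 and PSMD5, were lost in several alternatives. Calls of a difference were also lost without all libraries of 1 replicate number for KLHL26, BLOC1S3, TRNR, GALNT18, RPP38, PROSER2, SPRY1 and RPL22L1, with adjusted p up to 0.296 by edgeR. RPS27A was at -0.067 with TMM and -0.0771 with DESeq2 size factors, UQCR11 at -0.0837 and -0.0954, and MALAT1 at -0.0817 and -0.0937. When libraries were left out, the uncalled TUBA1B ran from -0.123 to 0.0525, UQCRH from -0.0769 to 0.0242 and RNR2 from -0.143 to 0.0257.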

Other observations

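Besides the 3 genes described above, 12 others with at least 50 normalized counts in TCHX at 5 h stood above their own 0 h level with both inhibitors and above T, by edgeR's test at an adjusted p under 0.05. The 3 given here were picked after their values had been seen. The polymerase III transcript BCYRN1, a brain cytoplasmic RNA, went from a mean of 1435 normalized counts at 0 h to 2383 at 5 h in TCHX and was at 1268 in T at 5 h. WDR90, a centriole protein, went from 312 to 605 and was at 349 in T at 5 h. SNAPC4, a subunit of the complex that starts transcription of small nuclear RNAs, went from 171 to 258 and was at 105 in T. Each mean is over 3 libraries. BCYRN1 and its pseudogenes share sequence, so its count is uncertain.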
